A study of Mus musculus with 6 samples.

Results

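The genes described here are the Wnt ligands, their Frizzled receptors and a set of co-receptor, feedback and inhibitor genes, followed in RNA-seq libraries of spheroids of 4T1, a line of mouse mammary carcinoma cells that the labels class as triple-negative. Members were taken by name from the table of counts per gene: every protein-coding gene called Wnt or Fzd with a number, plus Lrp5, Lrp6, Ror1, Ror2, Axin2, Rnf43, Znrf3, Lgr4, Dkk1 and Dkk3. This gave 39 genes of the 48820 in the table, made up of 19 ligands, 10 Frizzled receptors, 4 co-receptors, 4 feedback genes including Lgr4, and 2 inhibitors. The study compared 3 libraries of spheroids from a line labelled LATS1/2 double knock-out (dKO) with 3 libraries of spheroids from wild-type (WT) 4T1 cells. All spheroids were kept in RPMI medium with 10% fetal bovine serum and antibiotics. LATS1 and LATS2 are Hippo kinases, which hold YAP and TAZ, a pair of transcriptional coactivators, in check. The labels call the libraries of a group biological replicates without naming separate cultures, so p-values measure only the spread between these libraries, which may be technical. They say neither how the LATS genes were disrupted nor whether the dKO line is a single clone, and a difference between the lines and the loss of LATS1/2 cannot be told apart.

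Wnt proteins are secreted, lipid-modified signals. They bind Frizzled receptors on the receiving cell together with either Lrp5 or Lrp6, which stabilises beta-catenin, or with receptors such as Ror1, Ror2 and Ryk, which act without it. Rnf43 and Znrf3 are membrane ubiquitin ligases that remove Frizzled receptors from the surface, and Lgr4, a receptor for R-spondins, counters them. Axin2 is a widely used transcriptional readout of beta-catenin signalling and feeds back on it, and Dkk1 is a secreted inhibitor that binds Lrp5 and Lrp6. In the mammary gland Wnt signals are known for their part in stem and progenitor cell maintenance, and Wnt1 was discovered as a gene activated by mouse mammary tumour virus.

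Library totals ran from 38194478 to 42486146 counts in the libraries labelled dKO and from 40150225 to 49630116 in WT. Levels are CPM, the counts of a gene per 1000000 counts of its library, scaled with TMM. Each library had 678 to 775 genes at exactly 4 counts and only 273 to 367 at 5, so 4 counts were treated as the most that 1 read pair may add. On that basis 12 counts in a library, which corresponded to 0.243 to 0.314 CPM, were taken as the floor of detection. Lats1 stood at 50.9 ± 2.55 CPM in the libraries labelled dKO and 153 ± 6.36 CPM in WT, and Lats2 at 77.9 ± 12.5 CPM in the libraries labelled dKO and 27.2 ± 4.01 CPM in WT (SD, n = 3 each). Lats2 RNA was thus higher, not lower. Ccn2 and Ccn1, known targets of YAP and TAZ, stood at 379 ± 17.5 and 855 ± 253 CPM in the libraries labelled dKO, against 19.8 ± 1.02 and 36.2 ± 24.5 CPM in WT, both called higher. A gene total cannot reveal a short insertion or deletion, and directions below are between libraries as labelled. Along the second principal component, dKO 3 and WT 2 each stood away from the rest of their group. Of 11 markers of a breast carcinoma line, Krt8 was at 995 CPM or more and Epcam at 271 CPM or more in every library. Krt5 and Pgr were at 0, but Esr1 was at 4.42 to 9.66 CPM and was not called. Of the 9 tested, 3 rose and 4 fell in the libraries labelled dKO. Erbb2 fell, at 64.9 ± 11.2 CPM in the libraries labelled dKO and 194 ± 20.0 CPM in WT. Krt14 rose, at 135 ± 42.9 CPM in the libraries labelled dKO and 14.6 ± 3.70 CPM in WT. Among fibroblast markers Lum, Dpt and Thy1 were at 0 in every library, and the summed level of 11 markers was 4.68 to 7.57 CPM in the libraries labelled dKO and 41.7 to 66.1 CPM in WT, led by Pdgfra in WT and by Col1a1 and Pdgfra in the libraries labelled dKO. Among the 4 tested fibroblast markers, Pdgfra, Col1a1 and Pi16 were called lower and Col1a2 higher. Col1a2 had 28, 38 and 21 counts in the libraries labelled dKO, against 0, 4 and 0 in WT. Pi16 had 0, 0 and 6 counts in the libraries labelled dKO, against 333, 181 and 341 in WT. Each passed the filter through 1 group only. Among 12 leukocyte markers the sum was 82.3 to 215 CPM in the libraries labelled dKO and 16.3 to 53.9 CPM in WT. It was led by Csf1r in the libraries labelled dKO and by Cd14 in WT. Of the 4 tested, Csf1r, Cd68 and Itgam were called higher and Cd14 lower. Cd68 had 17.3, 15.8 and 13.7 CPM in the libraries labelled dKO, against 2.25, 1.91 and 2.28 CPM in WT. Itgam had 13, 13 and 20 counts in the libraries labelled dKO and 0 in WT, so it passed the filter only through the former. Adgre1, not tested, had 81, 103 and 0 counts in the libraries labelled dKO and 0 in WT. Ptprc stayed at or under 0.418 CPM, and Cd3e and Ly6g were at 0. The sum of 7 endothelial markers was 0 to 1.03 CPM in the libraries labelled dKO and 0.466 to 1.84 CPM in WT. The part of these markers in the results was not tested, and in bulk libraries fewer cells of a type and less RNA per cell cannot be told apart.

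Promoter windows of 4 members are shown here because these genes carry the differences below. Wnt7a and Rnf43 had the largest fitted rise and fall among called members that reached a mean of 5 CPM in either group. Fzd1 and Fzd7, with the largest rise and fall among the Frizzled genes of that level, were added after their values were seen. Each run gives the 250 bases before the RefSeq start on GRCm38.p6, 5′ to 3′ on the gene's strand, with CpG dinucleotides in capitals. Positions are chr6:91411354-91411603 on the minus strand for Wnt7a, chr11:87662837-87663086 on the plus strand for Rnf43 (the upstream of 2 listed starts), chr5:4758217-4758466 on the minus strand for Fzd1, and chr1:59481897-59482146 on the plus strand for Fzd7. RefSeq and GENCODE starts differ for these genes. The Rnf43 window lies inside the gene as GENCODE gives it, from 87662722. The Fzd1 and Fzd7 windows end upstream of the GENCODE starts at 4758035 and 59482424.
Wnt7a: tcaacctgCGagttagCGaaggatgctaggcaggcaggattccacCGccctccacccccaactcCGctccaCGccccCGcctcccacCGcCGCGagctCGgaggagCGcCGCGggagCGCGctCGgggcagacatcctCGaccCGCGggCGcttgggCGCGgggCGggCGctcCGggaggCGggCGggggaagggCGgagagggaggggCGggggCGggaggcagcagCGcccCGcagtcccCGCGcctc
Rnf43: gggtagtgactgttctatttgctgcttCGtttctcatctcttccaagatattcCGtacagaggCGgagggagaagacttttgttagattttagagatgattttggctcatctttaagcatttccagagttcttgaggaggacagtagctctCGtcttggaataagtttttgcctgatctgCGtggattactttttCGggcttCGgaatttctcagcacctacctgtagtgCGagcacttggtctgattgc
Fzd1: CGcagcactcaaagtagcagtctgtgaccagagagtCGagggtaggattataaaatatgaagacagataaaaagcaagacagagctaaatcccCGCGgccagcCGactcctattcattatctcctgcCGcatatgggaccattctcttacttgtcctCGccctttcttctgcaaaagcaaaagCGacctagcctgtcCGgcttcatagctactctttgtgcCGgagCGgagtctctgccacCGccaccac
Fzd7: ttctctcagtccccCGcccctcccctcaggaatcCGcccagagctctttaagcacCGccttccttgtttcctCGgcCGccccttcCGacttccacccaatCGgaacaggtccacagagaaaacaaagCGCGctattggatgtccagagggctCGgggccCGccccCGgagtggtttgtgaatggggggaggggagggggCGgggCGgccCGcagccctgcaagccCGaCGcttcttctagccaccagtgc

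The Wnt7a window held 34 CpG dinucleotides and 77.6% G and C, against 8 and 44.4% in the Rnf43 window. The Fzd1 window held 12 CpG dinucleotides and the Fzd7 window 17, and the median of all 32851 windows of this length was 6. Both strands were searched for GGAATG (the core bound by TEAD factors, the DNA-binding partners of YAP and TAZ), CTTTGAT and CTTTGAA (cores bound by TCF/LEF factors) and TGANTCA (AP-1, where N is any base). The 4 printed windows held none of these letters, which says only that these strings are not in these windows. Windows were matched for 27 of the 39 members, 31 windows in all. GGAATG was found in the window of Lgr4 alone, 3.23% of member windows against 12.6% of all windows. CTTTGAT was found in windows of Wnt11 and Wnt5b (6.45% of member windows), CTTTGAA in that of Dkk1 (3.23%), and TGANTCA in those of Ror2 and Wnt5b (6.45%). The shares of all windows were 3.21%, 4.46% and 6.75%, and so few member windows cannot show a difference. No window was used for Wnt5a, Wnt7b, Wnt8a, Wnt10a, Fzd2, Fzd3, Fzd6, Fzd8, Lrp5, Lrp6, Znrf3 and Dkk3.

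Many of the 39 members were too low to be compared. The filter on low counts kept 20 of them, and 18 were above 12 counts in every library. Of the 19 genes not tested, 8 were at 0 in every library and 11 had a few counts. In the libraries labelled dKO, 4 of the 20 tested members were higher and 10 were lower, called with edgeR's quasi-likelihood test at an adjusted p under 0.05. The share called was 70% among tested members, and 57.3% among all 15807 tested genes. Higher calls made up 20% of tested members and 28.6% of all tested genes, and lower calls 50% and 28.7%. All libraries labelled dKO lay on one side of all WT libraries for 15 of the 20 members, and for 65.6% of all tested genes. The median log2 fold change was -0.55 for the tested members and -0.01 for all tested genes. Among these 20 are Wnt10b and Fzd9, which passed the filter through the group where they were higher. Among the 18 members above the floor in every library, 3 were higher and 9 lower. All 14 calls held without dKO 3 and WT 2, the libraries that stood away from their groups. In that setting calls over all genes rose from 9060 to 10139.

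Among the ligands, the libraries labelled dKO held more Wnt7a and Wnt10a and less Wnt9a, while Wnt7b, the most abundant ligand per length in both groups, overlapped between them. Wnt7a (ENSMUSG00000030093, GRCm38 chromosome 6, 91363981 to 91411363, minus strand, as all gene positions here from GENCODE), a ligand best known for patterning the limb and the female reproductive tract, had 208, 188 and 158 CPM in the libraries labelled dKO, against 14.5, 11.9 and 14.9 CPM in WT. Every library labelled dKO was far above every WT library. Its mean was 13.4-fold higher (edgeR log2 fold change 3.74 ± 0.13, SE, adjusted p = 1.09e-07).

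Wnt10a (chromosome 1, 74791516 to 74804179), a ligand known for its part in tooth and skin appendage development, had 132, 125 and 142 CPM in the libraries labelled dKO, against 25.9, 48.8 and 23.8 CPM in WT. The groups did not overlap, and WT 2 was the highest WT library. Its log2 fold change was 2.02 ± 0.27 (edgeR adjusted p = 0.000524), a mean 4.05-fold higher.

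Wnt9a (chromosome 11, 59306928 to 59333552), a ligand with a role in joint formation, had 12.4, 14.0 and 18.1 CPM in the libraries labelled dKO, against 35.5, 38.5 and 41.5 CPM in WT. All 3 libraries labelled dKO lay below all 3 WT libraries. The log2 fold change of Wnt9a was -1.38 ± 0.15 (edgeR adjusted p = 6.63e-05), a mean 2.60-fold lower.

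Wnt7b (chromosome 15, 85535437 to 85582473), a relative of Wnt7a known for its role in lung and kidney development, had 635, 596 and 543 CPM in the libraries labelled dKO, against 555, 547 and 573 CPM in WT. Here dKO 3 lay below every WT library and the groups overlapped. The log2 fold change of Wnt7b was 0.08 ± 0.07 (edgeR adjusted p = 0.368), and 0.13 without dKO 3 and WT 2 (edgeR adjusted p = 0.0241). It shares 6.61% of its exon bases with AU022754 on the other strand, and whether strand was used in counting is not given in the sources used here. Wnt2b stood at 2.01, 1.18 and 1.58 CPM in the libraries labelled dKO, against 1.95, 1.31 and 1.38 CPM in WT, also with overlapping groups (edgeR adjusted p = 0.935).

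Wnt10b, a ligand known from mammary development and mouse mammary tumour virus insertions, was detected in WT only. It had 0, 0 and 7 counts in the libraries labelled dKO, all under the floor, and 1.09, 2.16 and 3.00 CPM in WT. The call was lower (edgeR adjusted p = 0.00188), and no size is given because the fitted fold depends on the prior count. The other 13 ligands were not tested. Wnt2, Wnt3, Wnt8a and Wnt9b were at 0 in every library. Wnt1 reached 0.209 CPM in dKO 3 with 0 in dKO 1 and dKO 2, and 0.385, 0.149 and 0.690 CPM in WT. Each of the remaining 8, including Wnt3a, Wnt4, Wnt5a, Wnt5b, Wnt6 and Wnt11, had at most 11 counts in any library.

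**Figure D1:**
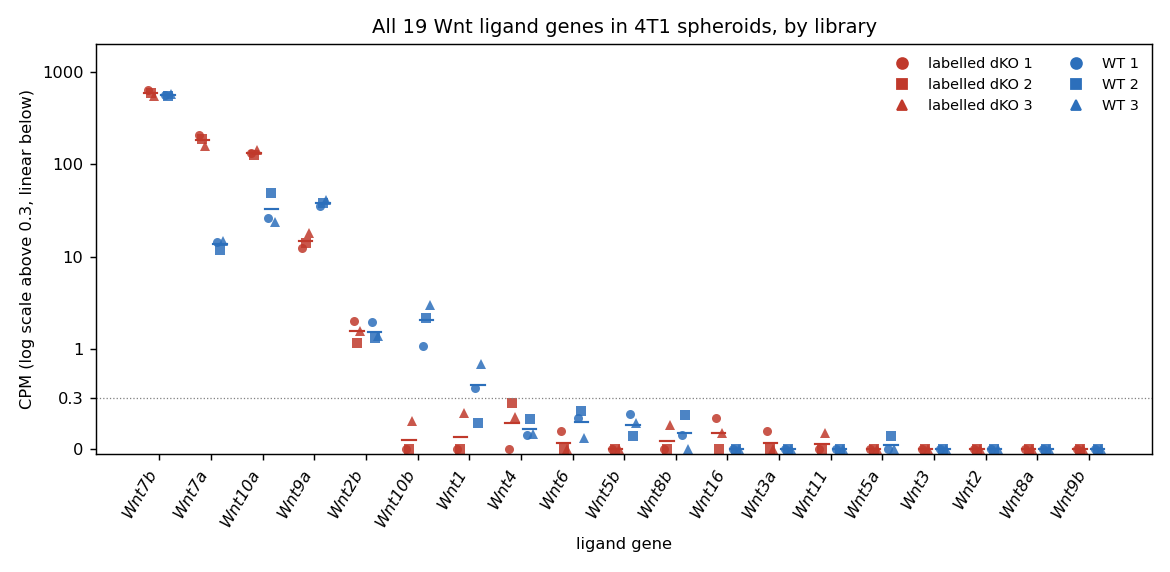
CPM of the 19 Wnt ligand genes (x axis, ordered by mean level) in each library, on a y axis that is logarithmic above 0.3 and linear below it. Points are libraries, short bars are group means of 3 libraries and the dotted line marks 0.3 CPM, close to the floor of 12 counts. Wnt7a and Wnt10a are higher and Wnt9a is lower in the libraries labelled dKO, and most other ligands lie at or near 0.

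Wnt10a and Wnt9a, both well expressed, each lie beside a Wnt gene that was under the floor. Of the 39 members, 4 pairs lay within 25 kb of each other, all of them ligand pairs. Wnt10a lies 6.2 kb from Wnt6 on chromosome 1, and Wnt6 had at most 9 counts in any library. Wnt9a lies 16.2 kb from Wnt3a on chromosome 11, and Wnt3a had 4 counts in dKO 1 and 0 in the others. Wnt10b and Wnt1, 11.7 kb apart on chromosome 15, were both low, with their highest levels in WT. Wnt9b and Wnt3, 24.3 kb apart on chromosome 11, were both at 0 in every library.

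Per length, the mix of ligand RNA differed between the groups. Levels were divided by the annotated exon length of each gene, as CPM per kb, so that genes could be set beside each other. Summed over the 19 ligands, this level was 253, 236 and 224 CPM per kb in the libraries labelled dKO and 140, 148 and 145 CPM per kb in WT, with no overlap. Wnt7b made up 50.7% ± 1.15 of the sum in the libraries labelled dKO and 78.9% ± 3.00 in WT (SD, n = 3 each). Wnt7a made up 24.4% ± 1.96 of the sum in the libraries labelled dKO and 3.01% ± 0.405 in WT. Wnt10a made up 22.7% ± 2.53 in the libraries labelled dKO and 9.16% ± 3.66 in WT. In the libraries labelled dKO the order by per-length level was Wnt7b at 121 ± 9.44, Wnt7a at 58.2 ± 7.99, Wnt10a at 53.9 ± 3.50 and Wnt9a at 4.45 ± 0.883 CPM per kb, and Wnt7a and Wnt10a differed by less than their spread. In WT the order of the means was Wnt7b at 114 ± 2.72, Wnt10a at 13.3 ± 5.60, Wnt9a at 11.6 ± 0.907 and Wnt7a at 4.34 ± 0.506 CPM per kb, with Wnt10a and Wnt9a within their spread of each other. Wnt10a came before Wnt9a through WT 2 alone (19.8 and 11.6 CPM per kb). It was below Wnt9a in WT 1 (10.5 and 10.7) and WT 3 (9.65 and 12.5). The ratio of Wnt7a to Wnt7b within a library was 0.506, 0.486 and 0.449 in the libraries labelled dKO and 0.0404, 0.0337 and 0.0401 in WT.

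**Figure D2:**
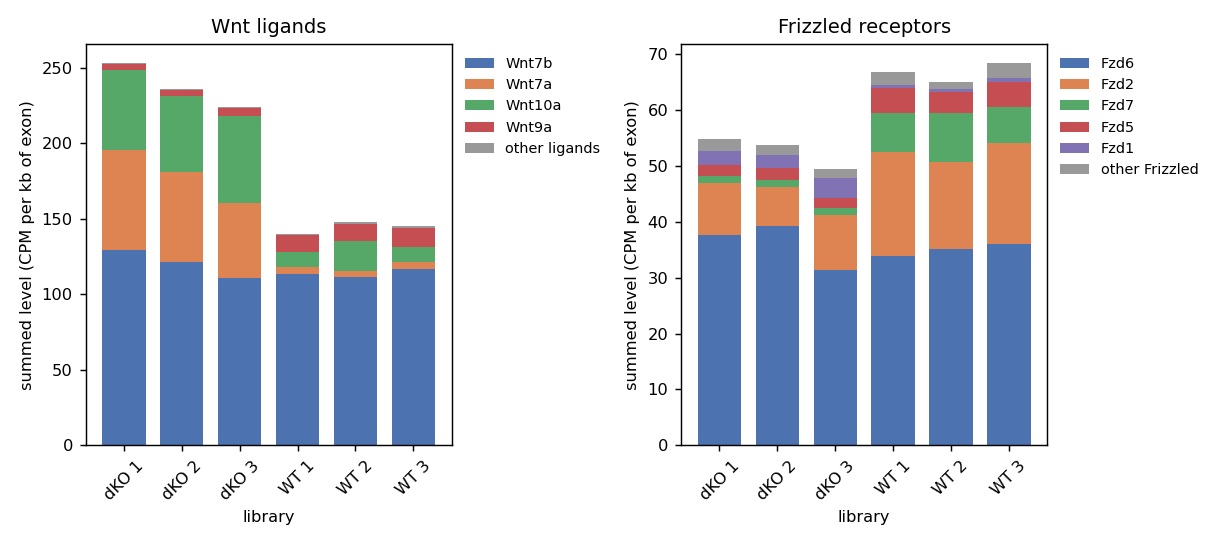
Summed per-length level (y axis, CPM per kb of exon) of the 19 ligands at left and the 10 Frizzled receptors at right in each library (x axis), stacked by gene. The ligand columns of the libraries labelled dKO carry larger Wnt7a and Wnt10a segments, and their Frizzled columns smaller Fzd2, Fzd7 and Fzd5 segments.

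Among the Frizzled receptors, Fzd7, Fzd5 and Fzd2 were lower and Fzd1 was higher in the libraries labelled dKO, while Fzd6, the most abundant per length, overlapped between the groups. Fzd7 (ENSMUSG00000041075, chromosome 1, 59482424 to 59486955), a receptor known from stem cell and mammary epithelial work, had 5.68, 5.63 and 5.33 CPM in the libraries labelled dKO, against 31.8, 39.8 and 29.9 CPM in WT. The libraries labelled dKO differed little from each other and all lay far below WT. Its log2 fold change was -2.61 ± 0.14 (edgeR adjusted p = 1.14e-06), a mean 6.10-fold lower.

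Fzd2 (chromosome 11, 102604396 to 102608058), a close relative of Fzd7 and Fzd1, had 34.3, 25.9 and 36.3 CPM in the libraries labelled dKO, against 68.5, 56.9 and 65.9 CPM in WT. Fzd5 (chromosome 1, 64730558 to 64737751), a receptor required in the intestine and the placenta, had 13.5, 15.1 and 13.1 CPM in the libraries labelled dKO, against 30.8, 25.8 and 29.9 CPM in WT. Neither gene overlapped between the groups, and each fell by a similar amount. Fitted log2 fold changes were -0.99 ± 0.14 for Fzd2 and -1.05 ± 0.12 for Fzd5 (edgeR adjusted p = 0.000275 and 9.01e-05). Fzd5 shares 17.8% of its exon bases with Gm38058 on the other strand.

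Fzd1 (chromosome 5, 4753839 to 4758035) went the other way from its relatives Fzd2 and Fzd7. It had 10.7, 9.26 and 15.01 CPM in the libraries labelled dKO, against 2.31, 2.33 and 3.00 CPM in WT. The groups did not overlap, and dKO 3 was the highest library. The log2 fold change of Fzd1 was 2.19 ± 0.24 (edgeR adjusted p = 6.60e-05). Fzd9, a receptor of nervous tissue and bone, was at 1.28, 1.25 and 0.721 CPM in the libraries labelled dKO, against at 0.162, 0.298 and 0.237 CPM in WT, where no library was above 12 counts. It was called higher (edgeR adjusted p = 0.00633), and its size is not given for that reason.

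Fzd6 (chromosome 15, 39006034 to 39038188), a receptor that orients hair follicles in planar polarity, had 181, 189 and 151 CPM in the libraries labelled dKO, against 163, 170 and 174 CPM in WT. The highest and the lowest library were both labelled dKO. The log2 fold change of Fzd6 was 0.04 ± 0.09 (edgeR adjusted p = 0.716), and 0.14 without dKO 3 and WT 2 (edgeR adjusted p = 0.0373). In Fzd6, 3.15% of exon bases overlap Gm26704 on the other strand. Fzd3 and Fzd4 also overlapped between the groups, and their values moved with single WT libraries. Fzd4, a receptor for Wnt and for norrin, had 6.28, 5.26 and 5.75 CPM in the libraries labelled dKO, against 10.3, 5.19 and 11.9 CPM in WT, with WT 2 the lowest of all 6. Its log2 fold change was -0.67 ± 0.29 (edgeR adjusted p = 0.0788). It was -0.95 without WT 2 (edgeR adjusted p = 0.00256) and -0.43 without WT 3 (edgeR adjusted p = 0.276). Fzd3, which guides axons through planar polarity, had a fitted log2 difference of -0.44 ± 0.33 (edgeR adjusted p = 0.294), and -0.74 without WT 2 (edgeR adjusted p = 0.0268) but -0.081 without WT 3 (edgeR adjusted p = 0.855). Fzd8 and Fzd10 were at 0 in every library.

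Summed per length, Frizzled RNA stood at 54.7, 53.7 and 49.4 CPM per kb in the libraries labelled dKO, against 66.8, 65.0 and 68.4 CPM per kb in WT, with no overlap. Fzd6 made up 68.4% ± 4.80 of the sum in the libraries labelled dKO and 52.5% ± 1.75 in WT. Fzd7 made up 2.33% ± 0.0464 in the libraries labelled dKO and 11.2% ± 2.03 in WT, where it came next after Fzd6 and Fzd2. In the libraries labelled dKO Fzd1 followed Fzd2, at 2.78 ± 0.712 CPM per kb, and then Fzd5 at 2.01 ± 0.153 CPM per kb.

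**Figure D3:**
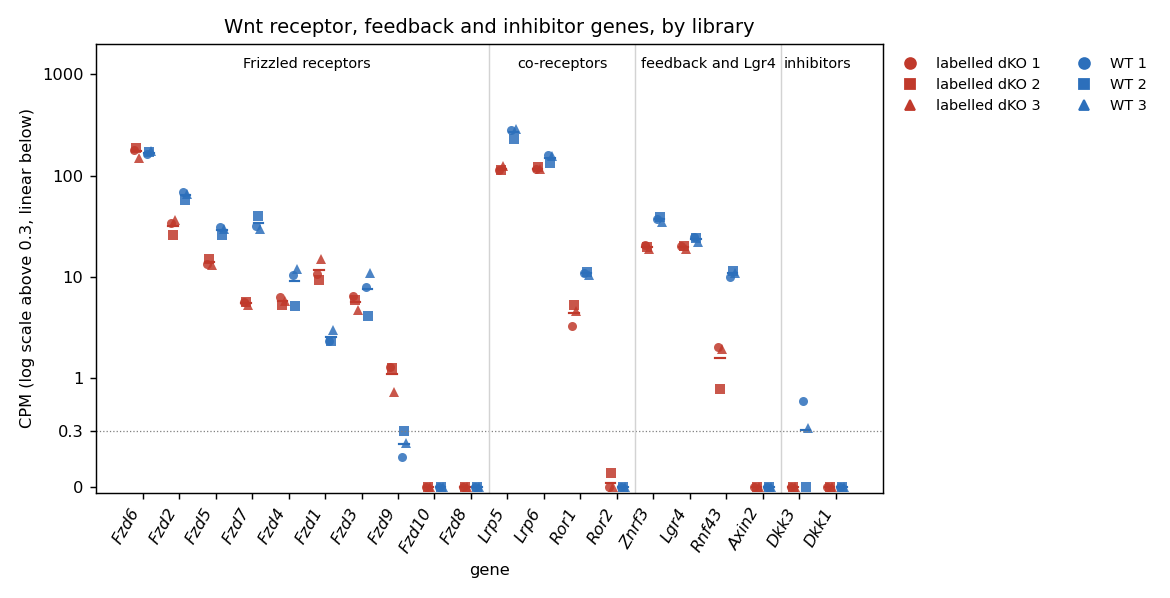
CPM of the 10 Frizzled receptors, 4 co-receptors, 4 feedback genes including Lgr4 and 2 inhibitors (x axis) in each library, on a y axis that is logarithmic above 0.3 and linear below it. Points are libraries, short bars are group means of 3 libraries and the dotted line marks 0.3 CPM. Fzd7, Lrp5, Ror1, Znrf3 and Rnf43 lie lower in every library labelled dKO than in any WT library, and Axin2 and Dkk1 lie at 0 throughout.

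The co-receptors that were tested were all lower in the libraries labelled dKO. Lrp5 (chromosome 19, 3584828 to 3686564), one of the pair of co-receptors for beta-catenin signalling, had 113, 113 and 126 CPM in the libraries labelled dKO, against 286, 233 and 289 CPM in WT. Its relative Lrp6 (chromosome 6, 134446476 to 134566965) had 116, 120 and 116 CPM in the libraries labelled dKO, against 158, 133 and 156 CPM in WT. Neither overlapped between the groups, and Lrp5 was the more affected. Fitted log2 fold changes were -1.20 ± 0.10 for Lrp5 and -0.34 ± 0.08 for Lrp6 (edgeR adjusted p = 1.08e-05 and 0.00613). Tested against a 1.5-fold change, Lrp6 was not called (edgeR adjusted p = 1.00). Per length, the ratio of Lrp5 to Lrp6 within a library was 1.37, 1.32 and 1.53 in the libraries labelled dKO and 2.53, 2.46 and 2.60 in WT.

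Ror1 (chromosome 4, 100095791 to 100444765), a receptor for Wnt5a-type signals, had 3.30, 5.28 and 4.65 CPM in the libraries labelled dKO, against 10.9, 11.3 and 10.3 CPM in WT. The groups did not overlap, and the log2 fold change was -1.30 ± 0.21 (edgeR adjusted p = 0.000655). Its relative Ror2 had 3 counts in dKO 2 and 0 in every other library. Wnt5a itself, the ligand best known for binding these receptors, had 3 counts in WT 2 and 0 elsewhere.

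The ligase genes of the Frizzled feedback loop were lower in the libraries labelled dKO. Rnf43 (ENSMUSG00000034177, chromosome 11, 87662722 to 87735539) had 2.04, 0.786 and 1.93 CPM in the libraries labelled dKO, against 10.1, 11.4 and 10.9 CPM in WT. Its log2 fold change was -2.77 ± 0.33 (edgeR adjusted p = 0.000119), a mean 6.81-fold lower. This was close to the fall of Fzd7, and without dKO 2 the log2 fold change of Rnf43 was -2.44 and that of Fzd7 -2.62. Znrf3 (chromosome 11, 5276324 to 5444847), its paralogue, had 20.7, 20.0 and 18.7 CPM in the libraries labelled dKO, against 37.4, 39.2 and 34.8 CPM in WT, with no overlap. Znrf3 had a fitted log2 difference of -0.91 ± 0.10 (edgeR adjusted p = 6.59e-05). Per length, Rnf43 stood at 0.119, 0.0474 and 0.124 of Znrf3 in the libraries labelled dKO and at 0.323, 0.351 and 0.378 in WT.

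Lgr4 (chromosome 2, 109917647 to 110014257), the R-spondin receptor, had 20.0, 20.4 and 18.97 CPM in the libraries labelled dKO, against 24.8, 24.2 and 22.0 CPM in WT. Its ranges did not overlap, but it did not pass the test (log2 fold change -0.26 ± 0.11, edgeR adjusted p = 0.0630).

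Axin2 and Dkk1 were at 0 counts in all 6 libraries, so no difference between the groups could be measured for them. The floor of 12 counts allows a level of up to 0.314 CPM in the shallowest library, from counting error only. A count of 0 throughout was common in the table: it held for 26.9% of its 21760 protein-coding genes, while 45 housekeeping genes looked up as a check, a list chosen after the data were seen, had at least 1072 counts in every library. Dkk3, a secreted protein related to Dkk1, had 0 counts in the libraries labelled dKO, against 29, 0 and 15 counts in WT, and was not tested.

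**Figure D4:**
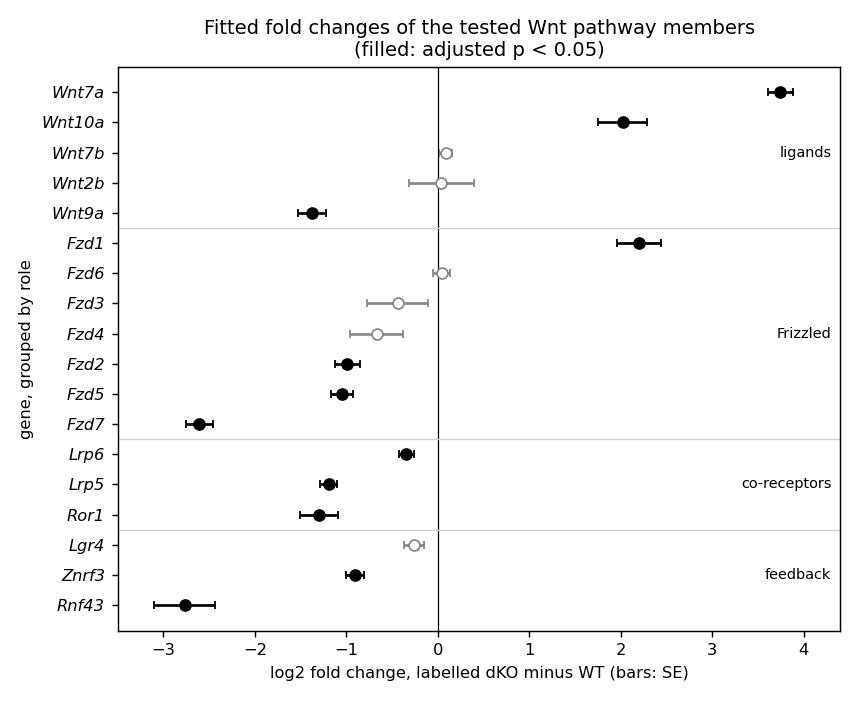
Fitted log2 fold changes, labelled dKO minus WT (x axis), of 18 tested members grouped by role (y axis), with bars for the SE. Filled points passed an adjusted p of 0.05 and open points did not; Wnt10b and Fzd9 are left out because every library of 1 group was at or under 12 counts. Fitted values run from -2.77 for Rnf43 to 3.74 for Wnt7a.

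Other genes of the pathway were followed in 4 lists, in which 6 genes stand in more than 1 list. Of 30 tested transducers of the beta-catenin branch, 4 were higher, 15 lower and 11 not called (63.3% called, against 57.3% of all tested genes). Their median log2 fold change was -0.40, against -0.01 for all tested genes. Tcf7, 1 of the 15, was at or under 12 counts in every library labelled dKO and passed the filter through WT. Without it 14 were lower (62.1% called) and the median was -0.34. Tle2, a co-repressor that binds TCF factors, had 6.25, 5.60 and 4.49 CPM in the libraries labelled dKO, against 134, 132 and 135 CPM in WT (log2 fold change -4.62 ± 0.13, edgeR adjusted p = 3.28e-08). Its relative Tle3 was also lower, at 32.4 ± 3.02 CPM in the libraries labelled dKO and 92.1 ± 2.87 CPM in WT. Apc2 and Axin1, which encode scaffolds of the complex that degrades beta-catenin, were higher, by 1.51 ± 0.13 and 0.50 ± 0.08 on the log2 scale. Ctnnb1, the beta-catenin gene, and Tcf7l2, a TCF factor gene, were named after their values were seen. Ctnnb1 had 779, 763 and 710 CPM in the libraries labelled dKO, against 1351, 1188 and 1422 CPM in WT (edgeR adjusted p = 4.40e-05). Tcf7l2 had 8.77, 6.46 and 9.75 CPM in the libraries labelled dKO, against 33.9, 33.2 and 29.2 CPM in WT (edgeR adjusted p = 1.40e-05). For both genes every library labelled dKO lay below every WT library.

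Of 35 extracellular modulators, 12 were tested, of which 2 were higher and 8 lower (83.3% called, against 57.3% of all tested genes, median log2 fold change -0.69), and 14 were at 0 in every library. Wls, which carries Wnt proteins to the cell surface, had 372, 378 and 284 CPM in the libraries labelled dKO, against 205, 278 and 204 CPM in WT (log2 fold change 0.59 ± 0.15, edgeR adjusted p = 0.00918). The lowest library labelled dKO, dKO 3, was close to the highest WT library, WT 2. Kremen1, a receptor for Dkk proteins, was higher, at 139 ± 9.79 CPM in the libraries labelled dKO and 50.1 ± 4.55 CPM in WT. Gpc1, a heparan sulfate proteoglycan gene, and Apcdd1, which encodes a membrane inhibitor of Wnt signalling, were lower, by log2 fold changes of -2.69 ± 0.14 and -4.15 ± 0.25. Lgr6, an R-spondin receptor related to Lgr4 and named after its values were seen, had 2.46, 2.63 and 0.791 CPM in the libraries labelled dKO, against 90.3, 128 and 75.7 CPM in WT (edgeR adjusted p = 6.13e-05). Of the R-spondin genes, Rspo1, Rspo2 and Rspo3 were at 0 in every library and Rspo4 had 4 counts in WT 2 alone.

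Of 24 genes known as beta-catenin targets, 12 were tested, of which 3 were higher, Kremen1 among them, and 7 lower (83.3% called, against 57.3% of all tested genes). Of the 7, Tcf7 and Tnfrsf19 were at or under 12 counts in every library labelled dKO and passed the filter through WT. The median log2 fold change was -0.98 with them and -0.36 over the other 10 genes, and called genes moved in both directions. Ccn4, which encodes a matricellular protein, had 627, 654 and 739 CPM in the libraries labelled dKO, against 18.998, 24.7 and 17.3 CPM in WT (log2 fold change 5.05 ± 0.15, edgeR adjusted p = 4.58e-08). Ccnd1, the cyclin D1 gene, had 153, 144 and 207 CPM in the libraries labelled dKO, against 1877, 1570 and 1979 CPM in WT (log2 fold change -3.43 ± 0.16, edgeR adjusted p = 5.39e-07). Cd44, a hyaluronan receptor gene, was lower, by a log2 fold change of -2.59 ± 0.08. Many of these genes are also known to respond to other pathways. The 3 listed targets called higher were Ccn4, Kremen1 and Myc, against 7 called lower, Apcdd1 among them, and Jag1 and Ascl2 were not called. Without Tcf7 and Tnfrsf19, 3 were higher and 5 lower. Sp5, Lgr5, Nkd1, Nkd2, Notum and Lef1 were among the listed genes at 0 in every library or too low to be tested. Of the members, Rnf43 and Znrf3, also known as targets, were called lower, and Axin2 was at 0 in every library. The log2 fold change of Myc was 0.71 ± 0.17 (edgeR adjusted p = 0.00576).

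Of 30 tested genes of planar polarity and of Wnt5a-type signalling, 5 were higher, 15 lower and 10 not called (66.7% called, against 57.3% of all tested genes, median log2 fold change -0.37). Dact2, called lower, and Dact1, not called, were at or under 12 counts in every library labelled dKO and passed the filter through WT. Without them 14 were lower (67.9% called) and the median was -0.33. Ptk7, a pseudokinase receptor of planar polarity, had 41.5, 39.3 and 48.8 CPM in the libraries labelled dKO, against 177, 165 and 177 CPM in WT (log2 fold change -2.002 ± 0.10, edgeR adjusted p = 4.97e-07). Ryk, a Wnt receptor, had 209, 200 and 185 CPM in the libraries labelled dKO, against 113, 118 and 121 CPM in WT (log2 fold change 0.76 ± 0.07, edgeR adjusted p = 2.77e-05). Ryk was higher and Ptk7 and Ror1 were lower, so the receptors of this branch did not move together. Daam2, a formin gene, was higher by a log2 fold change of 2.08 ± 0.31, and Camk2d, a calcium-dependent kinase gene, was lower, at 41.9 ± 4.62 CPM in the libraries labelled dKO and 99.8 ± 2.68 CPM in WT.

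**Figure D5:**
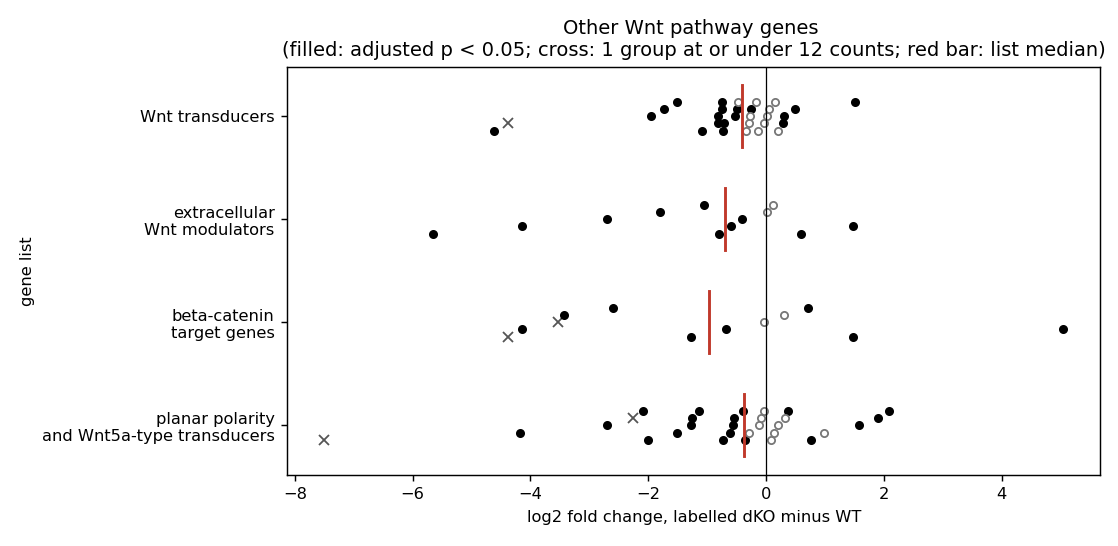
Fitted log2 fold changes, labelled dKO minus WT (x axis), of the tested genes of 4 other Wnt pathway lists (y axis). Filled points passed an adjusted p of 0.05, open points did not, crosses mark genes with every library of 1 group at or under 12 counts, whose size is uncertain, and red bars are list medians over all tested genes, crosses included. The medians lie below 0 in all 4 lists, and that of the beta-catenin targets is -0.98 with the crosses and -0.36 without them.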

How the data were processed

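RNA of 6 spheroid libraries was analysed. The submitters' processing notes name HISAT2 2.2.1, StringTie 2.2.1 and the mouse build GRCm38 (mm10). The authors deposited estimated counts per gene as whole numbers, without normalization. The sources used here do not say how these were made, from which annotation or with what strand setting. Gene symbols, exon lengths and coordinates were taken from GENCODE M21, which uses that build. The test was that of edgeR 4.0.16, run in R 4.3.3 (TMM, filterByExpr by group, robust quasi-likelihood F-test, genotype as the only term), with Benjamini-Hochberg adjustment over 15807 genes and a threshold of 0.05. The SE was obtained from the fold change and its F statistic, and the test was tried on simulated data. Alternatives included DESeq2 1.42.0. Members, lists and the rule for named genes were chosen with earlier results of these data known. The rule gives per-library values for called members of at least 5 CPM or an absolute log2 fold change of at least 1 and for the highest ligand and Frizzled. From each list it takes the 2 smallest adjusted p in each direction among genes whose groups did not overlap.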

Additional observations from a re-analysis of the deposited data

How the results depend on the processing

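Tests were repeated under 17 alternatives: other normalizations and count filters, DESeq2, an adjusted p under 0.01, a test against a 1.5-fold change, a replicate block, counts divided by 4, and libraries left out. The counts of 4 higher and 10 lower members stayed within 1.5 times under all of them. Leaving out 1 library gave 4 higher and 10 to 13 lower members, and leaving out WT 2 and dKO 3 gave 6 and 14. Over all tested genes the main test called 9060. Leaving out 1 library gave 8041 to 9120 calls over all genes, and leaving out WT 2 and dKO 3 gave 10139. Some of the counts of lower members include Dkk3 or Wnt1, which pass the filter there only through WT, and these calls are not read. Fzd9 was not tested with at least 50 counts in 3 libraries or with counts divided by 4, which left 3 higher members. The adjusted p under 0.01 and the 1.5-fold test keep the main fold changes, so under them only the call could change. Of 338 member fold changes under the alternatives, these included, 326 kept their direction and side of the threshold. Exceptions were Lrp6 under the 1.5-fold test, given above, and Fzd3 and Fzd4, called without WT 2, and Wnt7b and Fzd6, which were called without WT 2 and dKO 3 together (log2 fold changes 0.13 and 0.14, edgeR adjusted p = 0.0241 and 0.0373). Without those libraries Fzd3 and Fzd4 stood at -0.61 and -0.95. The uncalled Wnt2b ran from -0.16 to 0.23 with 1 library left out and was -0.061 without WT 2 and dKO 3. The uncalled Fzd6 ran from -0.020 to 0.13 with 1 library left out, and was below 0 without dKO 2 only. The 1.5-fold test calls fewer genes by construction: 4556 of all 15807 tested genes. In the lists it called 11 of 30 transducers, 6 of 12 extracellular modulators, 8 of 12 beta-catenin targets and 11 of 30 planar polarity genes. Of the 20 tested members it called 4 higher and 9 lower.

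With the longest transcript as gene length, Wnt7b made up 59.7% of the ligand sum in the libraries labelled dKO and 84.2% in WT, Wnt7a 19.9% in the libraries labelled dKO and 2.23% in WT, and Wnt10a 18.6% in the libraries labelled dKO. Fzd6 then made up 55.2% of the Frizzled sum in WT, and Fzd7 2.16% in the libraries labelled dKO. The replicate numbers share no stated origin, and same-numbered libraries deviated together with correlations of only -0.0602, 0.0483 and 0.0821. With the replicate block 8658 genes were called in all, with 4 higher and 10 lower members, and no member's call changed. At this depth, levels under 12 counts per library could not be told from 0.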
